A study of Homo sapiens with 18 samples.

Results

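RKO, an established human colorectal carcinoma line, was depleted of Vps28 with siRNA, and the depleted cells were compared with cells that received a nontargeting siRNA. The members of the comparison are the 6 libraries of siVps28#1 and siVps28#2 (3 each) and the 6 libraries of siCtrl#1 and siCtrl#2 (3 each), 12 of the 18 libraries of the series, chosen by the siRNA named in each title. All cells were wild-type RKO transfected with 30 nM siRNA by Lipofectamine RNAiMAX and collected after 72 h, so that the transfection itself is shared by every group. The other 6 libraries, of siTsg101#1 and siTsg101#2, entered only the comparison of the Vps28 with the Tsg101 depletion. The titles also number 3 batches, each of which holds 1 library of each siRNA. The model is a transient depletion in a single cancer line, and what is described are transcript levels, not proteins.

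Vps28 is a core subunit of ESCRT-I, the endosomal complex in which it is joined to Tsg101, a Vps37 protein and an Mvb12 or Ubap1 protein. ESCRT-I recognises ubiquitinated membrane proteins and, with the other ESCRT complexes, sorts them into vesicles that bud into the endosome and are broken down when the endosome fuses with lysosomes. Growth factor and cytokine receptors leave the signalling pool by this route, and low density lipoprotein cholesterol reaches the cell by way of the same compartments. The comparison asks which transcripts differ when this subunit is missing.

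The libraries were made with an AmpliSeq panel, in which a short stretch of each transcript is amplified and sequenced, and expression is given here as CPM, a library's counts scaled to a common total after TMM normalisation. Counted reads ranged from 3602108 to 6300561 in the siVps28 libraries and from 3553207 to 6352155 in the siCtrl libraries, and between 11818 and 12582 genes had at least 1 read. The first principal component held 30.5% of the variance and separated all siVps28 from all siCtrl libraries. On the second, with 13.3%, siCtrl#2 replicates 2 and 3 stood apart from the rest at -22.69 and -28.79. Of the epithelial and colonic markers, EPCAM, KRT8, KRT18 and CDX2 were detected, whereas KRT19, CDH1, CDX1, KRT20 and CDH17 had no count in any of the 12 libraries, so that RKO lacked part of the defining markers of colon epithelium in both arms. Markers of other cell types were at or near 0, with 4 of 5 fibroblast, 4 of 5 leukocyte and 2 of 4 endothelial genes at 0. In bulk RNA, a smaller number of cells that express a gene and less RNA per cell cannot be told apart.

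VPS28 itself (chr8:145648984-145653946 of GRCh37, minus strand) had 485, 364 and 514 counts with siCtrl#1 and 341, 298 and 338 with siCtrl#2. The siVps28#1 libraries held 12, 24 and 34 of its counts, those of siVps28#2 35, 45 and 30. Every siVps28 library was therefore far below every siCtrl library. In CPM the level was 88.3 ± 18.6 (SD, n = 6) with siCtrl and 5.84 ± 1.56 (SD, n = 6) with siVps28, a log2 fold change of -3.88 (SE 0.17, edgeR adjusted p = 3.77e-11). The depletion reached -3.91 with siVps28#1 and -3.84 with siVps28#2 on the log2 scale.

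None of the other 8 ESCRT-I transcripts was called in edgeR or DESeq2 for the mean of both siVps28 siRNAs. Of these 8, 2 had an unadjusted p under 0.05. TSG101, the ubiquitin-binding partner of Vps28, was between 91.0 and 165 CPM (median 109) with siVps28 and between 73.8 and 157 CPM (median 105) with siCtrl, with a log2 difference of 0.07 (SE 0.19). Values for VPS37A, UBAP1 and VPS37D were 0.46 (SE 0.18), 0.40 (SE 0.15) and -0.24 (SE 0.19), and those of VPS37B, VPS37C, MVB12A and MVB12B lay between -0.03 and 0.18. With siVps28#2 alone, VPS37A was at 0.67 (adjusted p = 0.0314) and UBAP1 at 0.59 (adjusted p = 0.0332), which passed the thresholds for a call. With siVps28#1 they were at 0.26 and 0.20 and did not. The 21 transcripts of ESCRT-0, ESCRT-II, ESCRT-III, Vps4 and the adaptor Alix (PDCD6IP) also held no called gene in edgeR or DESeq2, with 5 at an unadjusted p under 0.05, and their median was 0.12. CHMP1B, an ESCRT-III filament protein, had the largest of these differences, 0.50 (SE 0.12), which missed the 1.5-fold minimum.

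A gene was called when its fold change was at least 1.5 and its adjusted p-value was under 0.05. Of 9884 genes tested, 522 were higher (5.28%) and 494 were lower (5.00%) with siVps28 than with siCtrl, and the median log2 difference of all genes was 0.01. In 263 of the higher and 204 of the lower genes the 6 siVps28 libraries did not overlap the 6 siCtrl libraries. These counts were made among called genes only, from the same values as the calls, and add no separate support. Each siVps28 siRNA on its own against both nontargeting siRNAs gave 287 genes higher (2.90%) and 209 lower (2.11%) with both. Both comparisons used the same 6 siCtrl libraries and are not independent of each other. Those higher with both were 189 without siVps28#1 replicate 1, and those lower with both were 102, 101 and 127 without replicate 1, 2 or 3 of siVps28#1. Without siCtrl#2 replicate 2 the calls were 503 higher and 512 lower, and without siCtrl#2 replicate 3 they were 497 and 510. In the plot of level against difference, rises reached higher than falls, VPS28 apart.

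**Figure D1:**
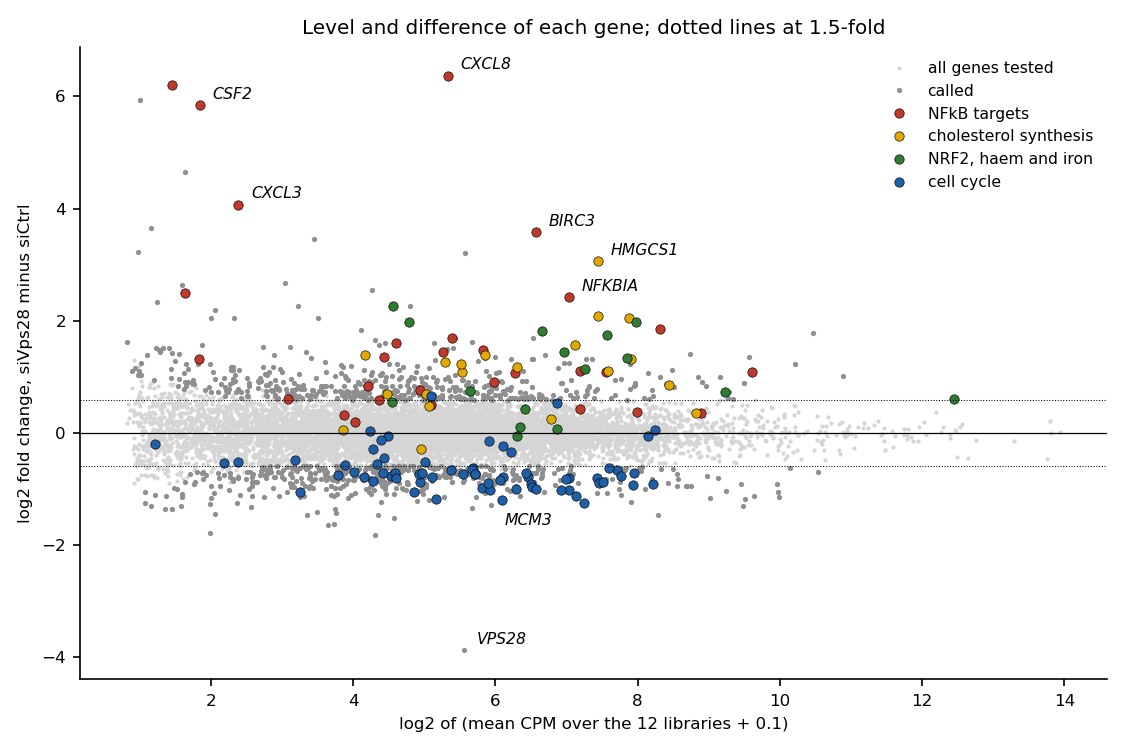
Each point is 1 of 9884 genes, with the log2 mean CPM of the 12 libraries on the x axis and the log2 fold change of siVps28 minus siCtrl on the y axis; coloured points are members of 4 gene lists and dotted lines mark 1.5-fold. CXCL8 at 6.37 and VPS28 at -3.88 are the extremes, most cell cycle genes lie below 0, and most NFkB targets, cholesterol synthesis enzymes and NRF2 genes lie above 0.

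The genes with the largest rises were led by targets of NFkB, the transcription factor family of inflammatory signalling. CXCL8 (chr4:74606236-74609433 of GRCh37, plus strand), which encodes the neutrophil chemokine interleukin-8, was between 0.609 and 1.15 CPM (median 0.884) with siCtrl and between 58.0 and 95.7 CPM (median 84.7) with siVps28. Its log2 fold change was 6.37 (SE 0.20, adjusted p = 2.17e-13). Within single batches the difference ranged from 5.55 to 6.16 in log2 CPM with a prior count of 2. That prior shrinks differences where counts are few. CXCL3, a chemokine of the same family, was between 0 and 1.47 CPM with siCtrl and between 7.21 and 13.7 CPM with siVps28, a log2 fold change of 4.07 (SE 0.35), and CXCL2 rose by 2.49 (SE 0.28). The arms did not overlap for CXCL8 or CXCL3. CXCL2 shared 10.1% and CXCL3 5.3% of its 50-base stretches with other transcripts, chiefly of the same family, and their reads may not be fully separated.

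Genes of the feedback that restrains NFkB signalling rose in 6 of 6 tested, where 5.28% of all genes did. BIRC3, a ubiquitin ligase of the tumour necrosis factor receptor complex, was between 8.76 and 17.7 CPM (median 15.8) with siCtrl and between 144 and 257 CPM (median 165) with siVps28, a log2 fold change of 3.58 (SE 0.16, adjusted p = 3.77e-11). NFKBIA, the inhibitor IkB alpha, was between 26.9 and 66.4 CPM (median 42.3) with siCtrl and between 203 and 231 CPM (median 222) with siVps28, and rose by 2.42 (SE 0.17, adjusted p = 1.76e-08). For both genes all siVps28 libraries were above all siCtrl libraries. NFKBIE, TNFAIP3, TNIP1 and NFKBIB rose by 1.36, 1.31, 1.08 and 0.90 on the log2 scale. Among the subunits, RELB, NFKB1 and REL rose by 1.48, 1.06 and 0.84, whereas RELA (0.43, SE 0.15) and NFKB2 (1.11, SE 0.41) did not pass the test. For REL, 50.6% of the 50-base stretches occur in other transcripts.

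Growth factors and receptors of the same list included genes that were close to absent in the control libraries. TNFRSF9, a T cell costimulatory receptor, had 2 counts in the 6 siCtrl libraries together and 157 in the 6 siVps28 libraries, a rate ratio of 70.2 (95% exact interval 19.1 to 585). CSF2, encoding the cytokine GM-CSF, had 6 counts with siCtrl and 217 with siVps28, a ratio of 32.3 (14.6 to 89.1), and was between 3.16 and 11.9 CPM (median 6.78) with siVps28, while its siCtrl counts all came from siCtrl#1. The intervals cover counting error only. In CSF1 (macrophage colony-stimulating factor), IL11 and IL32 the log2 fold changes were 1.60, 1.70 and 1.09, and the adhesion molecule ICAM1 and the mitochondrial superoxide dismutase SOD2 rose by 1.44 and 1.86. The protease PLAU and the surface protein CD83 rose by 0.77 and 0.59. IRAK2, a kinase of interleukin-1 receptor signalling, was named for its size alone and rose from between 4.42 and 7.01 CPM to between 27.5 and 39.1 CPM (log2 fold change 2.54, SE 0.16).

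Of the 46 NFkB and inflammatory genes listed, 29 were tested. Of these, 21 were higher (72.4%, where 5.28% of all genes were) and none was lower. With both siRNAs 19 were called, and the median was 1.11. The remaining 17 were under the count minimum, which a gene near 0 in siCtrl passes only through its siVps28 counts, so these figures describe the tested genes alone. Among the untested, CXCL1 had 4 counts with siCtrl and 47 with siVps28, CCL20 had 1 and 46, IL1A 0 and 15, CCL5 0 and 14, and TNF 0 and 3. IL6, IL1B, CXCL10 and VCAM1 had no count in any of the 12 libraries, so that the inflammatory list was not raised throughout at this depth. LIF (0.37, SE 0.13), IER3 (0.35, SE 0.14), TNFAIP2 (0.31, SE 0.15) and IRF1 (0.19, SE 0.17) were tested and not called.

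The promoters of the tested genes of this list were examined for a kappaB-like 9-mer, GGNNTTTCC on either strand, in windows from 250 bases before to 50 bases after RefSeq start sites. Of 24 tested members with a promoter in the table, 15 held it, 13 of the 18 called and 2 of the 6 not called, whereas 6.3% of all 35116 promoters and 7.6% of the 27305 genes did. The promoters of CXCL8 (chr4:73740319-73740618, plus strand of GRCh38.p14) and TNFRSF9 (chr1:7940790-7941089, minus strand) are shown because their transcripts rose the most among the genes with a match. The 9-mer, in capitals, starts 91 bases before the start site in CXCL8 and 73 bases before it in TNFRSF9, and reads GGAATTTCC in both. The sequences are from RefSeq, written 5′ to 3′ on the gene's strand.
CXCL8: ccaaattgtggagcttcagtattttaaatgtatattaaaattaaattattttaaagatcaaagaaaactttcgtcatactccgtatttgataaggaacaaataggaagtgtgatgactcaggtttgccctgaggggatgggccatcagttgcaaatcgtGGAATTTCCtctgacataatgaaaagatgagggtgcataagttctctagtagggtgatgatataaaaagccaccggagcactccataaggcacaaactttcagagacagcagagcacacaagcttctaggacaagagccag
TNFRSF9: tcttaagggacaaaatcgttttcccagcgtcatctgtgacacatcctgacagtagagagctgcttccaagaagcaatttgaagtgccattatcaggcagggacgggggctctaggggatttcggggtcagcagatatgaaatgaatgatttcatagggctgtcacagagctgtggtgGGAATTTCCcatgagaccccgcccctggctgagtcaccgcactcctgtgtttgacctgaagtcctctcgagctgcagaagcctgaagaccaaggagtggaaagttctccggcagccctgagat
A match describes the letters in the window, not a bound factor.

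**Figure D2:**
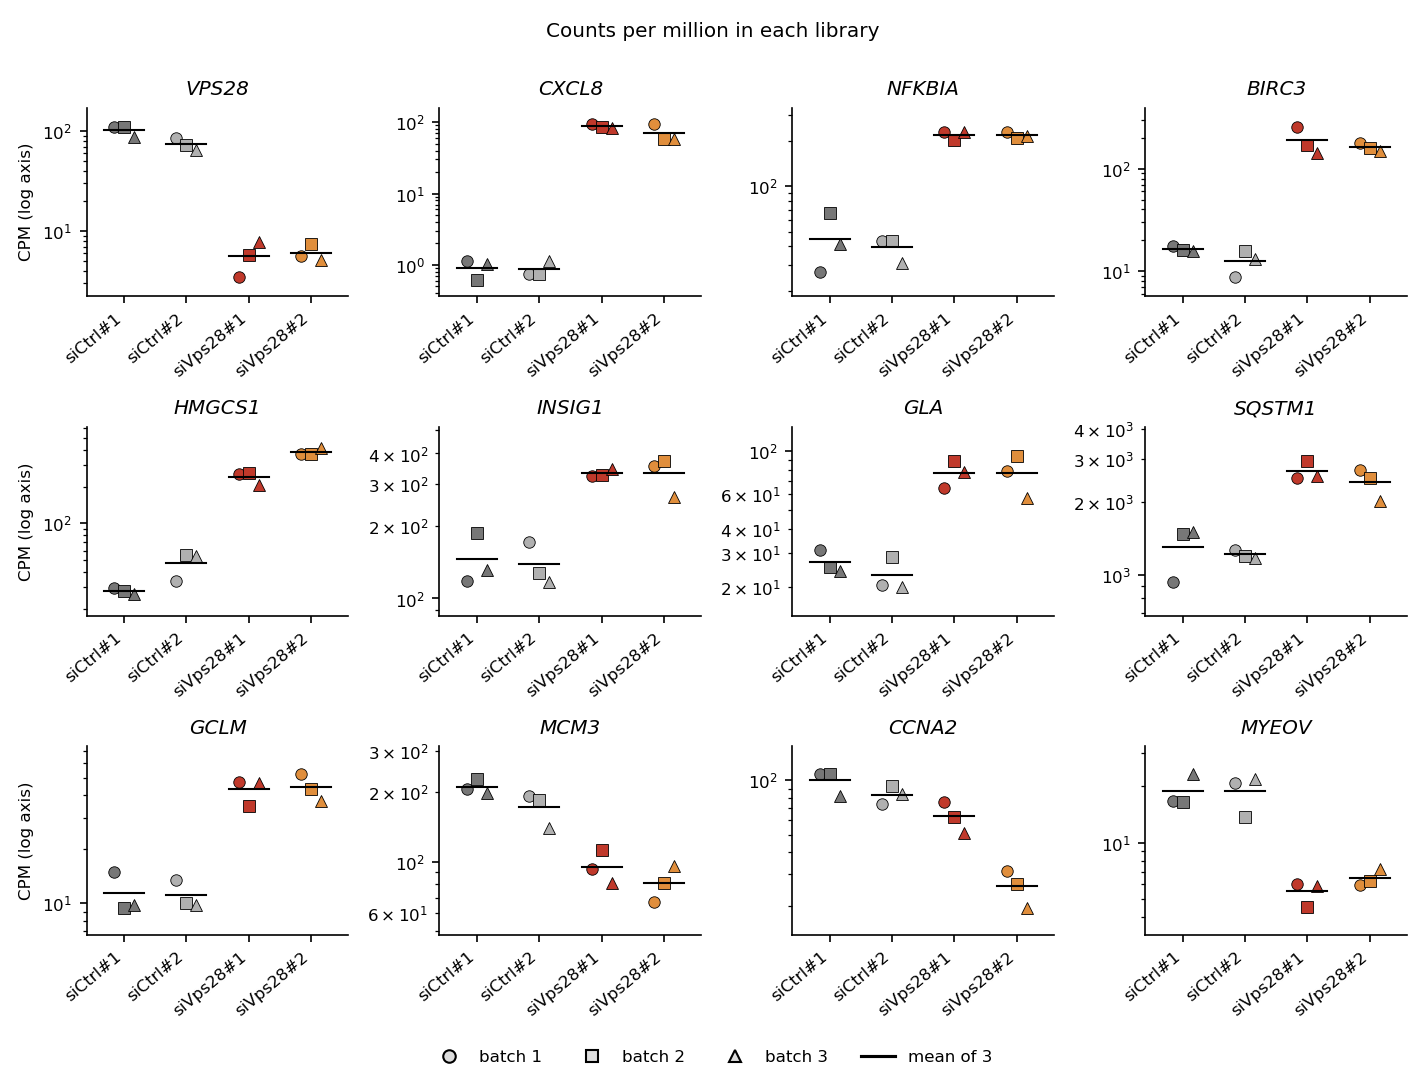
CPM on a log axis for 12 genes in each of the 12 libraries, by siRNA on the x axis, with the symbol giving the batch and the bar the mean of 3 libraries. VPS28, MCM3 and MYEOV are lower and CXCL8, NFKBIA, BIRC3, HMGCS1, INSIG1, GLA, SQSTM1 and GCLM higher with both siVps28 siRNAs without overlap, whereas CCNA2 is lower mainly with siVps28#2.

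Cholesterol synthesis enzymes rose broadly. Of 21 enzymes, 20 were tested, 15 were higher (75.0%, where 5.28% of all genes were) and none was lower. Of the higher enzymes 14 were called with both siRNAs, and the median was 1.14. HMGCS1, which makes the precursor of mevalonate, was between 26.3 and 54.7 CPM (median 31.7) with siCtrl and between 205 and 411 CPM (median 315) with siVps28, a log2 fold change of 3.06 (SE 0.14, adjusted p = 3.77e-11). Its level differed between the nontargeting siRNAs as well, by 0.76 in favour of siCtrl#2 (SE 0.19, adjusted p = 0.0446), and 2497 of its exonic bases lie opposite an antisense gene, from which it cannot be told apart where the strand setting is unknown. The sterol reductase DHCR7 went from between 54.9 and 74.1 CPM (median 63.7) to between 183 and 420 CPM (median 275), a rise of 2.09 (SE 0.14). The arms did not overlap in either gene.

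In the mevalonate steps, IDI1, MVK, MVD, ACAT2, FDPS and GGPS1 rose by 1.57, 1.23, 1.18, 1.08, 0.70 and 0.70 on the log2 scale. In the later steps, MSMO1, SQLE, HSD17B7, FDFT1, NSDHL and CYP51A1 rose by 2.04, 1.39, 1.38, 1.32, 1.26 and 0.86. For CYP51A1, HSD17B7 and GGPS1, 90.5%, 47.9% and 27.8% of the 50-base stretches occur in other transcripts, and their reads may not be fully separated. The members that were not called included TM7SF2 (0.47), EBP (0.24), SC5D (0.05) and PMVK (-0.29). LSS had 9 counts with siCtrl and 35 with siVps28 and was not tested. Called members were thus found both before and after squalene.

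Of 17 tested genes of sterol regulation and transport, 8 were higher (47.1%, where 5.28% of all genes were) and none was lower. Their median was 0.52. NPC1, which exports cholesterol from lysosomes, was between 52.1 and 84.4 CPM with siCtrl and between 181 and 243 CPM with siVps28 (log2 fold change 1.57, SE 0.11), and the arms did not overlap. INSIG1, the feedback protein that retains the sterol sensor in the endoplasmic reticulum, and INSIG2 rose by 1.22 and 0.98, STARD4 by 1.04 and NPC2 by 0.61. The factors SREBF1 (0.31, SE 0.12) and SREBF2 (0.52, SE 0.11) were not called. ABCA1, a cholesterol exporter and LXR target, was called on average (1.52, SE 0.31), but its difference was 2.41 with siVps28#1 and 0.63 with siVps28#2, and these differed from each other (adjusted p = 0.0345).

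In fatty acid synthesis, 1 of 7 tested enzymes rose and 1 fell (14.3% each, where 5.28% and 5.00% of all genes did). FASN, the fatty acid synthase, rose by 1.00 (SE 0.12) from between 228 and 414 CPM to between 438 and 772 CPM, and FADS2, a desaturase, fell by 0.79 (SE 0.12) from between 37.1 and 60.0 CPM to between 24.3 and 36.0 CPM. Neither pair of ranges overlapped. SCD, ACACA, ACLY, ELOVL6 and ACACB had log2 differences of 0.47, 0.42, 0.34, -0.34 and -0.47 and were not called. A sterol regulatory element core, TCACNCCAC on either strand, was found in 1.1% of all promoters and in 0 of the 15 cholesterol synthesis genes with a promoter in the table, which says only that these letters are not in those windows.

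**Figure D3:**
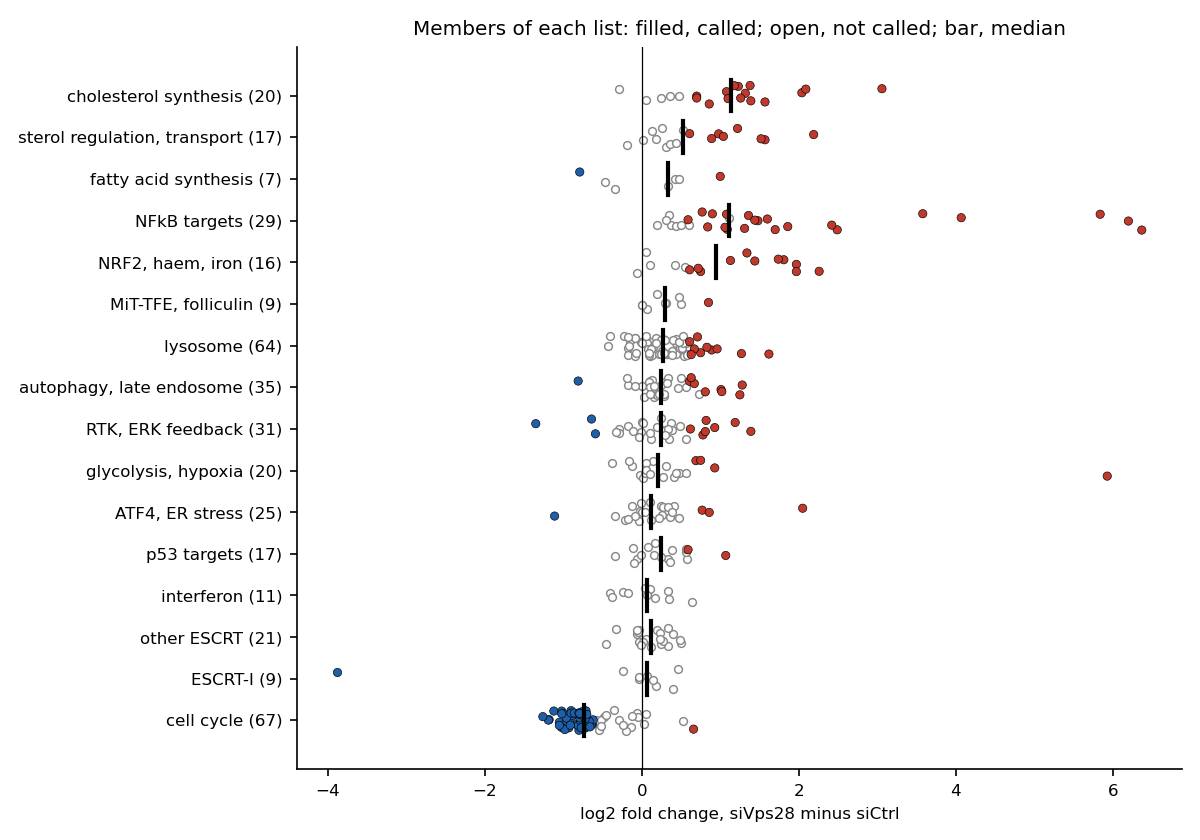
Log2 fold change of siVps28 minus siCtrl on the x axis for every tested member of 16 gene lists, with the number tested in brackets; filled points are called genes, open points are not called and bars are medians. The medians of cholesterol synthesis (1.14), NFkB targets (1.11) and NRF2, haem and iron genes (0.94) are the highest and that of cell cycle genes (-0.74) the lowest.

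Genes of the antioxidant factor NRF2 and of iron handling formed a further group, with a median of 0.94. Of 16 tested genes 11 were higher (68.8%, where 5.28% of all genes were) and none was lower. OSGIN1, an oxidative stress-induced growth inhibitor, rose by 2.26 (SE 0.17), from between 5.49 and 9.82 CPM to between 26.7 and 45.5 CPM. GCLM, a subunit of the enzyme that limits glutathione synthesis, was between 9.45 and 15.0 CPM (median 9.94) with siCtrl and between 34.8 and 52.7 CPM (median 45.1) with siVps28, a rise of 1.97 (SE 0.14), and NQO1, a quinone reductase, rose by 1.81 (SE 0.12). The siVps28 and siCtrl libraries did not overlap in these genes. SLC7A11 (the cystine transporter), HMOX1 (haem oxygenase), SRXN1 and the factor itself, NFE2L2, rose by 1.74, 1.44, 1.34 and 0.75. For SRXN1, 90.6% of the 50-base stretches occur in other transcripts. KEAP1 (0.42, SE 0.11) and GCLC (0.55, SE 0.17) were not called. PIR, an iron-binding nuclear protein named for its size, rose by 2.67 (SE 0.24).

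TFRC, the transferrin receptor that brings iron into endosomes, was between 66.1 and 172 CPM (median 95.0) with siCtrl and between 331 and 543 CPM (median 377) with siVps28, a log2 fold change of 1.97 (SE 0.15, adjusted p = 6.07e-08) without overlap. The ferritin subunits FTH1 and FTL rose by 0.72 and 0.61, but 41.3% and 18.5% of their 50-base stretches occur in other transcripts, mostly pseudogenes. SLC11A2, STEAP3 and IREB2 had differences of 0.06, -0.06 and 0.10. In the lists of cholesterol synthesis, sterol transport, NFkB, NRF2 and lysosomal genes, in which edgeR called none lower, 2 genes in all were lower at an unadjusted p under 0.05 and DESeq2 called 0.

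Of 64 lysosomal genes tested, 10 were higher (15.6%, where 5.28% of all genes were) and none was lower, 7 with both siRNAs, and the median was 0.27. GLA, alpha-galactosidase A, was between 20.1 and 31.2 CPM (median 24.7) with siCtrl and between 57.1 and 94.6 CPM (median 78.5) with siVps28, a rise of 1.62 (SE 0.14) without overlap, although 557 of its exonic bases lie opposite RPL36A. The amino acid transporter SLC36A1, the cystine exporter CTNS, the sialidase NEU1, the chloride transporter CLCN7, the sphingomyelinase SMPD1, ATP6V1D and ATP6V0A1 of the proton pump, the calcium channel MCOLN1 and the ceramidase ASAH1 rose by 1.27, 0.96, 0.89, 0.83, 0.75, 0.71, 0.63, 0.67 and 0.61. The abundant membrane proteins LAMP1 and LAMP2 (0.13 and 0.22) and the cathepsins CTSB, CTSD and CTSL (-0.09, 0.54 and 0.44) were not called. All 16 proton pump genes had positive values, with a median of 0.39, yet only the 2 named passed both thresholds. For SLC36A1 the nontargeting siRNAs differed too, by 1.18 (siCtrl#2 minus siCtrl#1, adjusted p = 0.0267), and its rise was 1.87 against siCtrl#1 alone and 0.68 against siCtrl#2 alone.

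The factors TFEB (0.07, SE 0.18), TFE3 (0.31, SE 0.12) and MITF (0.30, SE 0.38), which drive lysosomal genes, were not called. Of the 6 tested genes of the folliculin and Rag complexes, which hold these factors in the cytoplasm, FNIP2 rose by 0.84 (SE 0.13), from between 29.8 and 40.5 CPM to between 51.5 and 67.6 CPM, whereas FLCN (0.50) and RRAGC (0.47) were not called. The E-box of the CLEAR element, TCACGTG, was present in 14 of 45 lysosomal genes with a promoter in the table, in 4 of the 9 called and in 10 of the 36 not called, against 3.7% of all promoters and 4.5% of all genes. The promoters of SLC36A1 (chr5:151447353-151447652, plus strand of GRCh38.p14) and NEU1 (chr6:31862772-31863071, minus strand) are shown as those of the called lysosomal genes with the largest rises among the matches, with the E-box in capitals. In SLC36A1 the matches start 43 and 9 bases before the start site, and the second is joined to a match on the opposite strand. In NEU1 the match starts 127 bases before it.
SLC36A1: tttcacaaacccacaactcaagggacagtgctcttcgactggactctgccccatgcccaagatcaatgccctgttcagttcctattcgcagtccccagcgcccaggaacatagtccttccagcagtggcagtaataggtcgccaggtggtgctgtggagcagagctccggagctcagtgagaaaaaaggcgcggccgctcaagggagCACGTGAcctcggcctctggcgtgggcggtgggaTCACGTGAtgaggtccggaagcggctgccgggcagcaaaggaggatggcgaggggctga
NEU1: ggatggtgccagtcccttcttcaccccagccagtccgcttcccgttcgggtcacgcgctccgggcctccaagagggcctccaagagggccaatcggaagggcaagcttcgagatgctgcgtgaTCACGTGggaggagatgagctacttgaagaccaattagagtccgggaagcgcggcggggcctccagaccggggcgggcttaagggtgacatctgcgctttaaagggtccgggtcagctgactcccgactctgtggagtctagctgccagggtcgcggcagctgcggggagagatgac
The share of called lysosomal genes with a match was not tested against that of the genes not called.

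Among 35 tested genes of autophagy and late endosomes, 8 were higher (22.9%, where 5.28% of all genes were). Only 1 was lower (2.86%, where 5.00% of all genes were), and the median was 0.25. The autophagy receptor SQSTM1 (p62) was an abundant transcript, at between 936 and 1510 CPM (median 1240) with siCtrl and between 2020 and 2960 CPM (median 2530) with siVps28, a rise of 1.01 (SE 0.12) without overlap, although 1582 of its exonic bases lie opposite MRNIP. OPTN, a further receptor, rose by 1.28 (SE 0.12), and the ATG8 proteins GABARAPL1 and GABARAPL2 by 1.02 and 0.61. Of the late endosomal genes, PLEKHM1 rose by 1.25, RAB7A by 0.81 and VPS41 by 0.63, and RILP, a Rab7 effector, fell by 0.81 (SE 0.16). For PLEKHM1, 30.0% of the 50-base stretches occur in another transcript. The phosphoinositide-binding WIPI1 rose by 0.67, and the kinases and conjugation enzymes of autophagosome formation, such as ULK1 (0.22), BECN1 (0.09), ATG5 (0.11) and ATG7 (0.20), were not called.

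Genes of DNA replication and mitosis were lower with siVps28. Of 67 cell cycle genes, all tested, 48 were lower, where 5.00% of all genes were, and 1 was higher; 29 were lower with both siRNAs, and the median was -0.74. Of the DNA replication genes 26 of 30 were lower, 18 with both siRNAs, with a median of -0.79. The nontargeting siRNAs differed in this group too, with a median of -0.32 for siCtrl#2 minus siCtrl#1. MCM3, a subunit of the replicative helicase, was between 140 and 228 CPM (median 196) with siCtrl and between 66.7 and 112 CPM (median 87.0) with siVps28, and fell by 1.12 (SE 0.13, adjusted p = 6.43e-06) without overlap. GINS2, CDC6, MCM5, FEN1, TK1 and PCNA fell by 1.18, 1.05, 1.02, 1.02, 1.00 and 0.83. MCM2 (-0.58), RFC5 (-0.53), RRM1 (-0.35) and GINS3 (0.03) were not called.

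Of 22 mitotic genes 17 fell, with a median of -0.76, but only 8 were called lower with both siRNAs. The median of these 22 was -0.57 with siVps28#1 and -0.91 with siVps28#2. ANLN, an actin-binding protein of the cleavage furrow, fell by 1.26 (SE 0.11), from between 181 and 235 CPM to between 78.5 and 103 CPM without overlap, and BIRC5 (survivin), CDC20, PLK1, CENPF and CCNB1 fell by 1.02, 0.98, 0.96, 0.90 and 0.74. Of 15 regulators of the G1 to S transition, CCND1, CDK2, CDKN2C, CCNE2 and E2F1 fell by 0.66, 0.80, 0.79, 0.86 and 0.91, CCNE1 rose by 0.66 (SE 0.13, but 0.58 and not called without siVps28#1 replicate 1), and CDK4, CDK6, RB1 and CDKN1B were not called. The list's median was -0.60 with siVps28#1 and -0.90 with siVps28#2. The cyclin CCNA2 had -0.55 with siVps28#1 and -1.83 with siVps28#2 (adjusted p of the difference 0.00546), so that its call rests mainly on siVps28#2, and POLA1 differed likewise by -1.13 (adjusted p = 0.0482).

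Among genes of at least 5 CPM called with both siRNAs, the largest falls after VPS28 were in TMT1B, MYEOV and ORC1, which marks replication origins (-1.47, SE 0.18). MYEOV, named for its overexpression in myeloma, was between 13.7 and 23.2 CPM (median 18.8) with siCtrl and between 4.53 and 7.23 CPM (median 6.00) with siVps28, a fall of 1.65 (SE 0.16, adjusted p = 1.42e-06) without overlap. TMT1B, a methyltransferase-like protein, fell by 1.83 (SE 0.18) and had a difference of 0.94 between siCtrl#2 and siCtrl#1 (adjusted p = 0.0412). SHANK1, a scaffold protein best known from synapses, was the most abundant of these genes outside the histone family and fell from between 312 and 599 CPM to between 116 and 196 CPM (-1.47, SE 0.14). ITGA7 (an integrin subunit), NRGN, KANK2, ZNF367 and FANCM had log2 fold changes of -1.43, -1.42, -1.35, -1.34 and -1.32, and the histone genes H4C9 and H2AC12 of -1.47 and -1.31. Of the 12 largest falls, only FANCM had overlapping arms.

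Further large rises outside the lists were in EID3, ITGAX, CD82 and FBXO32. ITGAX, the integrin alpha X subunit of leukocytes, was between 5.16 and 11.5 CPM (median 9.69) with siCtrl and between 74.5 and 104 CPM (median 79.2) with siVps28, a log2 fold change of 3.20 (SE 0.17). This leukocyte gene rose while the leukocyte markers PTPRC, CD3E and LYZ had no count in either arm. EID3, a subunit of the SMC5/6 complex, rose by 3.46 (SE 0.29), the tetraspanin CD82 by 2.27 (SE 0.19) and FBXO32, a ubiquitin ligase, by 2.26 (SE 0.24). The arms did not overlap in any of these genes.

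**Figure D4:**
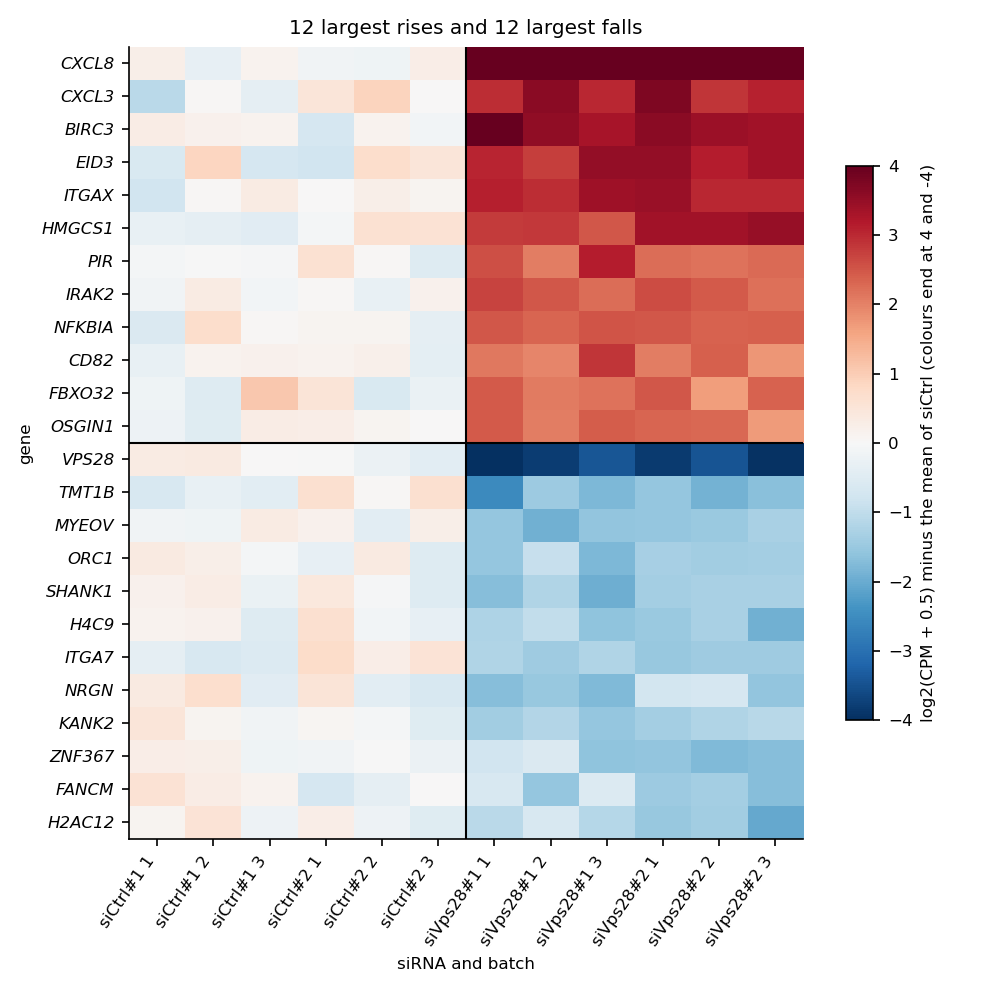
Heat map of log2(CPM + 0.5) minus the mean of the 6 siCtrl libraries, with genes in rows (12 largest rises above, 12 largest falls below) and the 12 libraries in columns by siRNA and batch; colours end at 4 and -4. All siVps28 libraries are above the siCtrl mean in the upper and below it in the lower genes, and only VPS28 falls by more than the -1.83 of TMT1B.

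Genes of receptor tyrosine kinase and ERK signalling moved in both directions, with a median of 0.24. Of 31 tested, 7 were higher (22.6%, where 5.28% of all genes were) and 3 were lower (9.68%, where 5.00% were). MET, the hepatocyte growth factor receptor, was between 106 and 161 CPM (median 151) with siVps28 and between 26.5 and 100 CPM (median 60.0) with siCtrl, a rise of 1.39 (SE 0.14). It also differed by 1.40 between siCtrl#2 and siCtrl#1 (adjusted p = 0.000683), and its rise was 2.09 against siCtrl#1 alone and 0.69 against siCtrl#2 alone. The ligand HBEGF, the early genes KLF6 and JUNB, the feedback genes SPRY2 and DUSP6, and FGFR4 rose by 1.19, 0.93, 0.81, 0.82, 0.78 and 0.62. DUSP4, a phosphatase of ERK, EPHA2 and ETV4 fell by 1.35, 0.64 and 0.59, but none was called with both siVps28 siRNAs. DUSP4 was low, between 2.2 and 5.79 CPM with siCtrl and between 0.575 and 2.29 CPM with siVps28, and its arms overlapped. With siVps28#1 alone, DUSP4 and ETV4 were not called (adjusted p = 0.0764 and 0.154). EPHA2 had -0.94 with siVps28#1 and -0.35 with siVps28#2 (adjusted p = 0.103 for the latter). EPHA2 was not called without siVps28#2 replicate 1 (-0.57), nor ETV4 without siCtrl#1 replicate 3, siCtrl#2 replicate 1, siVps28#1 replicate 1 or siVps28#2 replicate 3 (-0.55 to -0.42). EGFR, the receptor best known as ESCRT cargo, ERBB2 and IGF1R had differences of 0.37 (SE 0.13), -0.01 (SE 0.13) and -0.11 (SE 0.11) and were not called.

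Of 17 tested p53 targets 2 were higher (11.8%, where 5.28% of all genes were). Of 25 genes of the ATF4 response and endoplasmic reticulum stress 3 were higher (12%) and 1 was lower (4.0%, where 5.00% of all genes were). Of 20 genes of glycolysis and hypoxia 4 were higher (20%). Among the p53 targets, SESN2 rose by 1.07 (SE 0.21) and FAS by 0.59 (SE 0.14), whereas CDKN1A (0.58), MDM2 (-0.06), BAX (-0.11) and GDF15 (-0.10) were not called. FAS, just past the 1.5-fold minimum, was at 0.58 and not called in DESeq2, and at 0.52 to 0.55 and not called without siCtrl#1 replicate 2, siCtrl#2 replicate 1 or 3, siVps28#1 replicate 2 or siVps28#2 replicate 3. Among the ATF4 and endoplasmic reticulum stress genes, CEBPB, DNAJB9 and ATF3 rose by 2.05, 0.86 and 0.77, and PHGDH, the first enzyme of serine synthesis, fell by 1.11 (SE 0.13), whereas ATF4 (0.26), ASNS (-0.21), HSPA5 (0.00) and XBP1 (0.04) were not called. None of 11 interferon genes was called in edgeR or DESeq2, with 5 at an unadjusted p under 0.05 and with ISG15 at -0.40. In glycolysis and hypoxia, ALDOC rose by 0.93, PDK1 by 0.75 and PFKFB4 by 0.69. The fourth was HKDC1, a hexokinase homologue with 2 counts in all siCtrl and 114 in all siVps28 libraries (rate ratio 51.0, 95% exact interval 13.8 to 426), which passed the count minimum only through its siVps28 counts. GAPDH (-0.13), PGK1 (0.05) and CA9 (-0.02) were not called, nor was PFKFB4 without siVps28#1 replicate 3 or siVps28#2 replicate 2 (0.58 in each case) or without the replicate block (0.66).

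The siRNAs of each arm were compared with each other in the same fit. Between siVps28#2 and siVps28#1, 32 genes differed (0.324%), 17 higher and 15 lower with siVps28#2, and 17 of these were among the 1016 genes called against siCtrl. CCDC88A, an actin-binding protein, was the clearest, with a log2 fold change of -2.77 for siVps28#2 and -0.27 for siVps28#1 (adjusted p of the difference 4.01e-05). PATJ, GMNN (geminin) and XKR8 had fold changes of 1.84, -1.89 and -1.59 in the siVps28#2 libraries, compared with 0.09, -0.35 and -0.09 in those of siVps28#1. The calls of these genes against siCtrl therefore come from siVps28#2. The number of 32 fell to 2, 3 and 3 without replicate 1, 2 or 3 of siVps28#1, to 13, 10 and 7 without those of siVps28#2, and to 21 and 18 without siCtrl#1 replicate 2 or 3, and was 107 without siCtrl#2 replicate 1. PATJ lost its call against siCtrl without siCtrl#1 replicate 3, siCtrl#2 replicate 3 or siVps28#2 replicate 3 (0.81 to 0.88).

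Between siCtrl#2 and siCtrl#1, 211 genes differed (2.13%), 138 higher and 73 lower with siCtrl#2, and 55 of these were among the genes called with siVps28. Without siCtrl#2 replicate 1, which lay nearer to siCtrl#1 on the second component, the number was 744, and it was between 66 and 96 without any other siCtrl library. Genes named here with such a difference were TMT1B, ITGA7, HMGCS1, SLC36A1, MET, AAK1, ACVR1, ATP6V0A1, PLAU, CDKN1A and EPCAM, higher with siCtrl#2, and FTL, GDF15 (-2.05, adjusted p = 0.000474) and the histone gene H2BC12, lower with it. Against siCtrl#2 alone AAK1 (0.43) and ACVR1 (0.41) were not called.

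The Vps28 depletion was set directly against the Tsg101 depletion, the other core subunit of ESCRT-I, in a fit of all 18 libraries. Of 9884 genes, 218 were higher (2.21%) and 422 lower (4.27%) with siVps28 than with siTsg101. Of the 1016 genes called against siCtrl, 107 differed from siTsg101. Among the genes higher with siVps28, 34 were above and 31 below their level with siTsg101, and among those lower, 5 were above and 37 below. For most of the called genes, therefore, no difference between the depletions passed the thresholds, which does not show that they were equal.

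CEBPB, a factor of the inflammatory and stress response, was the largest difference among called genes other than VPS28, 2.76 lower with siVps28 than with siTsg101 (SE 0.20, adjusted p = 2.59e-09), where the log2 fold changes against siCtrl in this fit were 1.99 and 4.75. OCRL, an endosomal phosphoinositide phosphatase, TANGO2 and ABCC4 were lower by 1.92, 1.61 and 1.60. Their rises against siCtrl were called with siVps28#2 but not with siVps28#1 (adjusted p = 0.141, 0.642 and 0.201 for siVps28#1). TANGO2 had 0.40 with siVps28#1 and 1.67 with siVps28#2. With siCtrl, OCRL was between 2.54 and 4.21 CPM and TANGO2 between 0.898 and 1.52 CPM, so that both rest on few reads. The call of ABCC4 against siCtrl was lost without siCtrl#1, siCtrl#2 or siVps28#2 replicate 3 or siVps28#1 replicate 1 (0.53 to 0.66), and that of TANGO2 without any 1 of 6 libraries, namely siCtrl#1 replicate 1 or 3, siCtrl#2 replicate 2, siVps28#1 replicate 1 or 2 or siVps28#2 replicate 1 (0.89 to 1.07), and in DESeq2 (adjusted p = 0.098). Higher with siVps28 were NXPH4 by 1.52, the clathrin adaptor kinase AAK1 by 1.32, CSF2 by 1.16 and the receptor ACVR1 by 1.11. The fall of NXPH4 against siCtrl was not called without siCtrl#1 replicate 2 (-0.56) or siCtrl#2 replicate 1 (-0.51). For AAK1 and ACVR1 the siVps28 values were 1.12 and 0.83 and the siTsg101 values -0.20 and -0.28, so that the rise was called with siVps28 and the values with siTsg101 lay near 0.

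**Figure D5:**
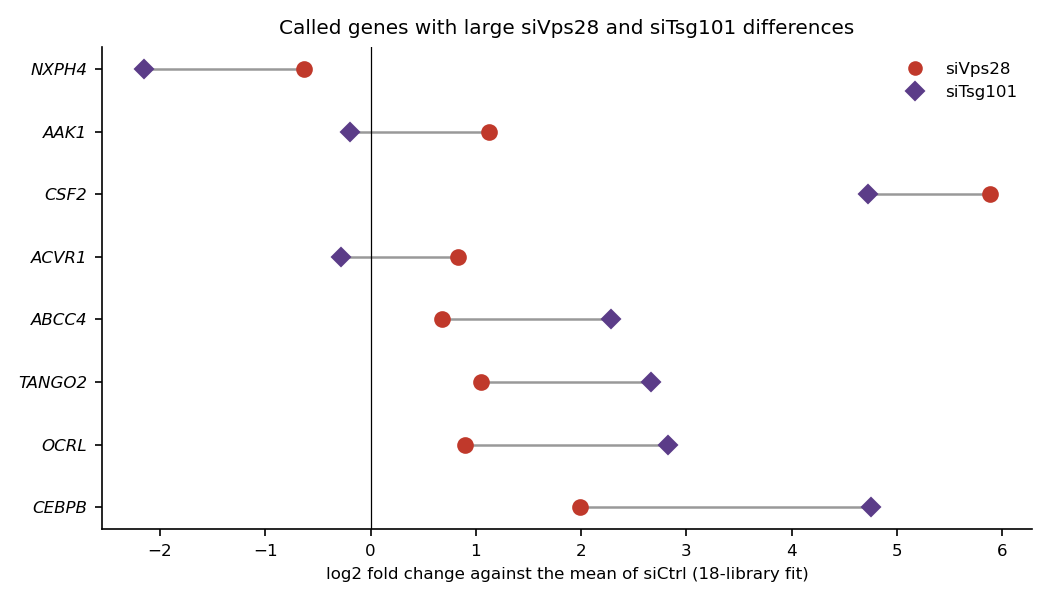
Log2 fold change against the mean of both nontargeting siRNAs on the x axis, from the fit of 18 libraries, for 8 called genes other than VPS28 with large differences between siVps28 (circles) and siTsg101 (diamonds). CEBPB shows the widest gap, 1.99 against 4.75, and AAK1 and ACVR1 are above 0 with siVps28 and below it with siTsg101.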

How the data were processed

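RNA of RKO cells was amplified with the Ion AmpliSeq Transcriptome panel and sequenced on an Ion Proton. Alignment, by the authors, was to the hg19 reference of the panel; their deposited files hold raw HTSeq 0.6.0 counts per target, 1 list per library; the strand setting is not given in the sources used here, and the submitters' notes name DESeq2 1.18.1 for their tests. Of 20802 targets, 20228 were matched to a gene name. Counted reads per library were 45.71% to 46.68% of all reads. No 2 of the libraries were identical.

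Targets with more than 100 counts over the 12 libraries were kept (10242), and 358 noncoding ones were left out, which left 9884, of which 82 had no name. Counts were scaled by TMM and fitted in edgeR 4.0.16 (R 4.3.3), with the 4 siRNA groups and the batch number as a block, and mean siVps28 was tested against mean siCtrl by the quasi-likelihood test with Benjamini-Hochberg adjustment; every adjusted p is from it unless DESeq2 is named. Standard errors were taken from the fold change and the F statistic. The batch numbers in the titles pair the libraries; deviations of same-numbered libraries correlated by 0.121 on average (12 of 18 pairs over 0.1) against -0.0603 otherwise. The study describes the replicates as biological. As each siRNA is its own group in the fit, p-values measure the spread between replicates of the same siRNA after the batch block. They leave out the spread between the siRNAs of an arm, and so do not extend to other siRNAs. The siTsg101 comparison used all 18 libraries. For genes at 6 or fewer siCtrl counts in all, ratios are given with exact 95% intervals.

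Gene lists (18, with 476 genes, of which 402 were tested) and motifs were written from general knowledge, and the members and lists were chosen with earlier results of these data known. The 89 named genes are the ESCRT-I subunits, the 12 largest rises and falls called with both siRNAs at a mean of at least 5 CPM, up to 4 called list members in each direction, and the 5 largest differences from siTsg101 in each direction and between the siVps28 siRNAs; further list members are given with values. Of these, 2 are not reported here, nor are some other list members, although they entered all fits and counts. Positions and overlaps are from GENCODE on GRCh37 (no strand or amplicon position was known), promoters from RefSeq. Fits were tested on simulated data. Alternatives were DESeq2 1.42.0, RLE size factors, no filter, 10 counts in every library, noncoding targets kept, a filter on all 18 libraries, no block, siRNAs of an arm pooled, all 18 libraries in the fit, each nontargeting siRNA alone as reference, the adjusted p alone, and each library left out.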

Additional observations from a re-analysis of the deposited data

Results flagged for a closer look

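In 8 of 178 gene and arm combinations a single library lay apart from the other 5 of its arm, in CPM. With siVps28 these were BIRC3 in siVps28#1 replicate 1 (257, others 144 to 178), MET in siVps28#1 replicate 3 (106, others 145 to 161) and ETV4 in siVps28#2 replicate 3 (46.1, others 70.5 to 77.9). With siCtrl they were ITGAX (5.16, others 9.26 to 11.5) and SESN2 (68.7, others 164 to 267), both in siCtrl#1 replicate 1, HKDC1 in siCtrl#1 replicate 3 (0.339, others 0), and TNFRSF9 (0.491, others 0) and PATJ (1.47, others 2.68 to 3.56) in siCtrl#2 replicate 2. Chance alone sets about 1 in 20 groups apart by this measure.

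Of the named genes reported here, 25 differed between the siVps28 and siTsg101 depletions by the test of the difference itself, given here as log2 siVps28 minus siTsg101. The targets were TSG101 at 4.98 and VPS28 at -3.97. Other ESCRT-I subunits were MVB12A at 1.14, with -0.99 for siTsg101 against siCtrl, and VPS37A at -1.07, with 1.52 for siTsg101 against siCtrl. Higher with siVps28 were NXPH4 (1.52), AAK1 (1.32), CSF2 (1.16), ACVR1 (1.11), NQO1 (0.90), EID3 (0.84), ITGAX (0.78), PIR (0.71), OSGIN1 (0.71) and HBEGF (0.61). Lower with siVps28 were CEBPB (-2.76), OCRL (-1.92), TANGO2 (-1.61), ABCC4 (-1.60), CCDC88A (-1.40), DUSP4 (-1.35), TMT1B (-1.12), SLC36A1 (-1.03), MYEOV (-0.89), FBXO32 (-0.73) and PDK1 (-0.62).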

How the results depend on the processing

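Against siCtrl#2 alone 639 and against siCtrl#1 alone 824 of the 1016 calls remained, and 123 genes were lower with both siVps28 siRNAs against siCtrl#2. List medians moved to 0.72 for sterol regulation and 0.24 for ATF4 and ER stress against siCtrl#1 alone, and to -0.02 for ATF4 and ER stress, 0.16 for ESCRT-I, 1.11 for NRF2, haem and iron genes and 0.10 for receptor tyrosine kinases against siCtrl#2 alone. With the adjusted p alone, 942 genes were higher and 848 lower. Without the replicate block, 503 were higher and 475 lower. Between the siVps28 siRNAs the 32 genes became 81 with DESeq2, 125 with no filter, 18 without the replicate block and 80 in the fit of 18 libraries, and between the siCtrl siRNAs the 211 became 355 with no filter and 324 in the fit of 18 libraries.

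With each library left out in turn, genes higher with both siVps28 siRNAs were 189 (without siVps28#1 replicate 1) to 327, genes lower with both 101 (without siVps28#1 replicate 2) to 245, genes that differed between the siVps28 siRNAs 2 (without siVps28#1 replicate 1) to 107 (without siCtrl#2 replicate 1), and between the siCtrl siRNAs 66 (without siCtrl#1 replicate 3) to 744. The medians ranged from 1.05 to 1.39 for NFkB targets, 0.16 to 0.38 for MiT-TFE, 0 to 0.27 for ATF4 and ER stress, -0.04 to 0.14 for ESCRT-I and 0.17 to 0.27 for receptor tyrosine kinases. The cause of these shifts was not tested. No named gene that was called in the main fit or in the alternative changed direction under any alternative listed. At most 9 of the 89 named genes lost their call, against siCtrl#2 alone. The 89 include 8 uncalled ESCRT-I subunits, which had no call to lose and whose changes of sign were not counted. With 10 counts required in every library, 15 had no value. Other scalings moved the median of all genes by less than 0.02. Genes near 100 counts in all are measured with few reads per library.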

Other observations

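Histone genes whose transcripts are made during DNA replication were seen to be lower after their values had been examined, and were therefore collected by symbol. Of 69 such genes on the panel, 45 were tested, 33 were lower (73.3%, where 5.00% of all genes were) and 1 was higher, with a median of -0.91, which was -0.57 with siVps28#1 and -1.20 with siVps28#2. H2AC12 fell from between 699 and 1420 CPM to between 236 and 624 CPM, and H4C3 and H1-4 had log2 fold changes of -1.16 and -1.05. H2BC12 had 0.94 with each siRNA, but its arms overlapped (12.5 to 50.3 CPM with siCtrl, 36.8 to 50.1 CPM with siVps28), and it differed by -1.55 between siCtrl#2 and siCtrl#1 (adjusted p = 0.000406). Of its 50-base stretches 57.2% occur in other transcripts, against 3.2% for H2AC12 and 0.0% for H4C3 and H1-4. The share was higher still for H2AC7 (83.9%), H2AC17 (67.8%) and H2AC14 (66.3%), which were called lower. Reads of histone genes that rose and of some that fell may therefore not be fully separated.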
